A study of Mus musculus with 12 samples.

Results

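Caveolae are flask-shaped pits of the plasma membrane that are abundant in adipocytes. Their coat is built from caveolins, integral membrane proteins that oligomerise in cholesterol-rich membrane, and from cavins, cytosolic proteins that assemble on top of them, while the ATPase EHD2 sits at the neck and holds the pit at the surface. Loss of caveolin-1 or of cavin-1 removes caveolae and causes lipodystrophy in mice and in people. The 6 genes described here are Cav1 and Cav2 (caveolins), Ptrf, Sdpr and Prkcdbp (older names of the genes for cavin-1, cavin-2 and cavin-3) and Ehd2. They were chosen by symbol from the 24341 genes of the deposited table, and all 6 were found and passed the filter on low values.

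RNA was sequenced from SV40-immortalised preadipocytes of C57Bl/6 adipose tissue, to see how Acly, the gene for ATP citrate lyase, bears on gene expression as adipocytes form. The 4 groups of 3 libraries were Acly-/- adipocytes (day 4), Aclyf/f adipocytes (day 4), Acly-/- preadipocytes (day 0) and Aclyf/f preadipocytes (day 0). The f/f cells carry Acly between loxP sites and served as controls. All cells were taken to confluence in DMEM with 10% serum, and the adipocytes received a standard adipogenic cocktail with rosiglitazone, so that stage and rosiglitazone cannot be told apart. The labels do not say how Acly was deleted or whether replicates are separate cultures or clones, and p-values measure only the spread between these libraries, which may be technical.

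Every level below is in FPKM, a fragment count divided by transcript length and by the library's mapped fragments, and errors are SD over n = 3 libraries a group. Low values move in steps of 1 fragment, which placed the libraries at about 7.12e+06 to 1.37e+07 fragments. Library 3 of the Acly-/- preadipocytes stood apart in its FPKM sum, 608176 against at most 560172 elsewhere, with the small nucleolar RNA gene Snord12 at 54145 FPKM. Acly stood at 13.2, 12.8 and 11.02 FPKM in Acly-/- adipocytes, against 814, 722 and 724 FPKM in Aclyf/f adipocytes. In preadipocytes it stood at 11.9, 12.5 and 11.9 FPKM in Acly-/- cells, against 89.5, 86.2 and 84.9 FPKM in Aclyf/f cells, so every library went with its label. All 8 adipocyte markers were called higher in adipocytes of either genotype, and their summed level was 6771 to 8365 FPKM in Acly-/- adipocytes, 11225 to 12061 FPKM in Aclyf/f adipocytes, 643 to 704 FPKM in Acly-/- preadipocytes and 1080 to 1147 FPKM in Aclyf/f preadipocytes. With Acly loss 7 of the 8 were called lower in adipocytes, as were 29.2% of all genes tested. The sum of 7 preadipocyte markers, mostly Ly6a, was 701 to 748 FPKM in Acly-/- adipocytes and 143 to 207 FPKM in Aclyf/f adipocytes. It was 839 to 1162 FPKM in Acly-/- preadipocytes and 646 to 749 FPKM in Aclyf/f preadipocytes. In adipocytes, Acly loss and the extent of differentiation therefore cannot be told apart. In preadipocytes 4 of the 8 adipocyte markers were called lower with Acly loss and 0 higher, where 22.4% of all genes tested were called lower. Fabp4 was 2.52-fold, Cebpa 2.36-fold, Pparg 1.34-fold and Lpl 1.22-fold lower in Acly-/- preadipocytes. Acly loss and a difference in adipocyte marker level thus cannot be told apart at day 0 either. Markers of endothelium and skeletal muscle, which are also rich in caveolae, were partly detected, as given at the end. The endothelial genes Cdh5 and Tie1 and the muscle genes Myod1, Myog and Ckm were at the table's floor of 0.01 in all 12 libraries.

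The start regions of 4 members are shown because they separate the patterns described below: Cav1 and Cav2 are neighbours that rose together on differentiation, Ptrf went the other way, and Sdpr had the largest genotype differences of the 6. Each window runs from 250 bases before to 50 bases after a RefSeq start (GRCm38.p6, the build also called mm10), 5′ to 3′ on the gene's strand. The windows lie at chr6:17306085-17306384 (+ strand, Cav1), chr6:17280935-17281234 (+ strand, Cav2), chr11:100970568-100970867 (- strand, Ptrf) and chr1:51288876-51289175 (+ strand, Sdpr). Capitals mark every match, on either strand, to 9 motifs: TEAD (GGAATG), nuclear receptor element (AGGTCA), C/EBP (TTGCNNAA), AP-1 (TGANTCA), E-box (CACGTG), ATF4 (TGATGNAA), GC box (GGGCGG), the CCAAT box (CCAAT) and the TATA box (TATAAA).
Cav1: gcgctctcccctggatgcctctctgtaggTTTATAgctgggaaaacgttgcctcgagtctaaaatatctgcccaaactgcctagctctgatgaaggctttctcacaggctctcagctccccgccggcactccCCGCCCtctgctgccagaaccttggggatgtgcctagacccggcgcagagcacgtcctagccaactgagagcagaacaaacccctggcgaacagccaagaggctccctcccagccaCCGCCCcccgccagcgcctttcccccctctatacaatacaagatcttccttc
Cav2: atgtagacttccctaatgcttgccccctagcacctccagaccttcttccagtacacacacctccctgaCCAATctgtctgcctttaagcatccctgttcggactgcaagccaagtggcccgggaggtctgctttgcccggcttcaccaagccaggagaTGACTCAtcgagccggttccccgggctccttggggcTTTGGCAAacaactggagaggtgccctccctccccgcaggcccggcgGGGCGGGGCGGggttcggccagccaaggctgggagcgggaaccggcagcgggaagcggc
Ptrf: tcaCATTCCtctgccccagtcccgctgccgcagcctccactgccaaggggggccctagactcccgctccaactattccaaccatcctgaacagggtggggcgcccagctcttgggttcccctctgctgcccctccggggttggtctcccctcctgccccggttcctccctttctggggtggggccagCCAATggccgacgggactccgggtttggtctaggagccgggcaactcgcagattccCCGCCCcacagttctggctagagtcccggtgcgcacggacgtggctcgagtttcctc
Sdpr: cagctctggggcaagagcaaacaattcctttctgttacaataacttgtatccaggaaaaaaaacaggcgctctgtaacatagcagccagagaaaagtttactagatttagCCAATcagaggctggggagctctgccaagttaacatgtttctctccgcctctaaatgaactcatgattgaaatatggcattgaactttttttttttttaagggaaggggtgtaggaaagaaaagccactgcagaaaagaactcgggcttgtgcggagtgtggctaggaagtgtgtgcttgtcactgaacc
The Cav1 window held 2 GC boxes, 1 of them across the start, and TATAAA on the reverse strand 221 bases before it. A second RefSeq window of Cav1, at chr6:17307390-17307689, held no match, and a second one of Ptrf, which covers nearly the same bases, held the same 3 matches. The Cav2 window held 2 GC boxes that overlap by 1 base, the second of them across the start, an AP-1 match at -92, a C/EBP match at -56 and a CCAAT box at -182. The Ptrf window held a TEAD match at -247, a CCAAT box at -63 and a GC box at -7. The Sdpr window differed in base composition, with 43.3% G or C and 4 CpG, against 59.3% and 13 for Cav1, 64.3% and 16 for Cav2 and 66.7% and 17 for Ptrf, and its only match was a CCAAT box at -140. Over 32851 promoter windows of the same length the median was 52.7% G or C and 7 CpG. The 5th to 95th percentile was 36.3% to 73.7% G or C, and all 4 windows lay inside it. Of those windows 35.7% held a GC box, 37.4% a CCAAT box, 14.7% the TEAD letters, 13.6% the TATA letters, 10.8% the C/EBP letters and 7.81% the AP-1 letters. Positions count from the start, -1 being the base before it, and name the left end of the match. A match is a description and not a bound site. Of the 6 members 5 had a window, the Ehd2 window holding 2 GC boxes and 1 CCAAT box.

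**Figure D1:**
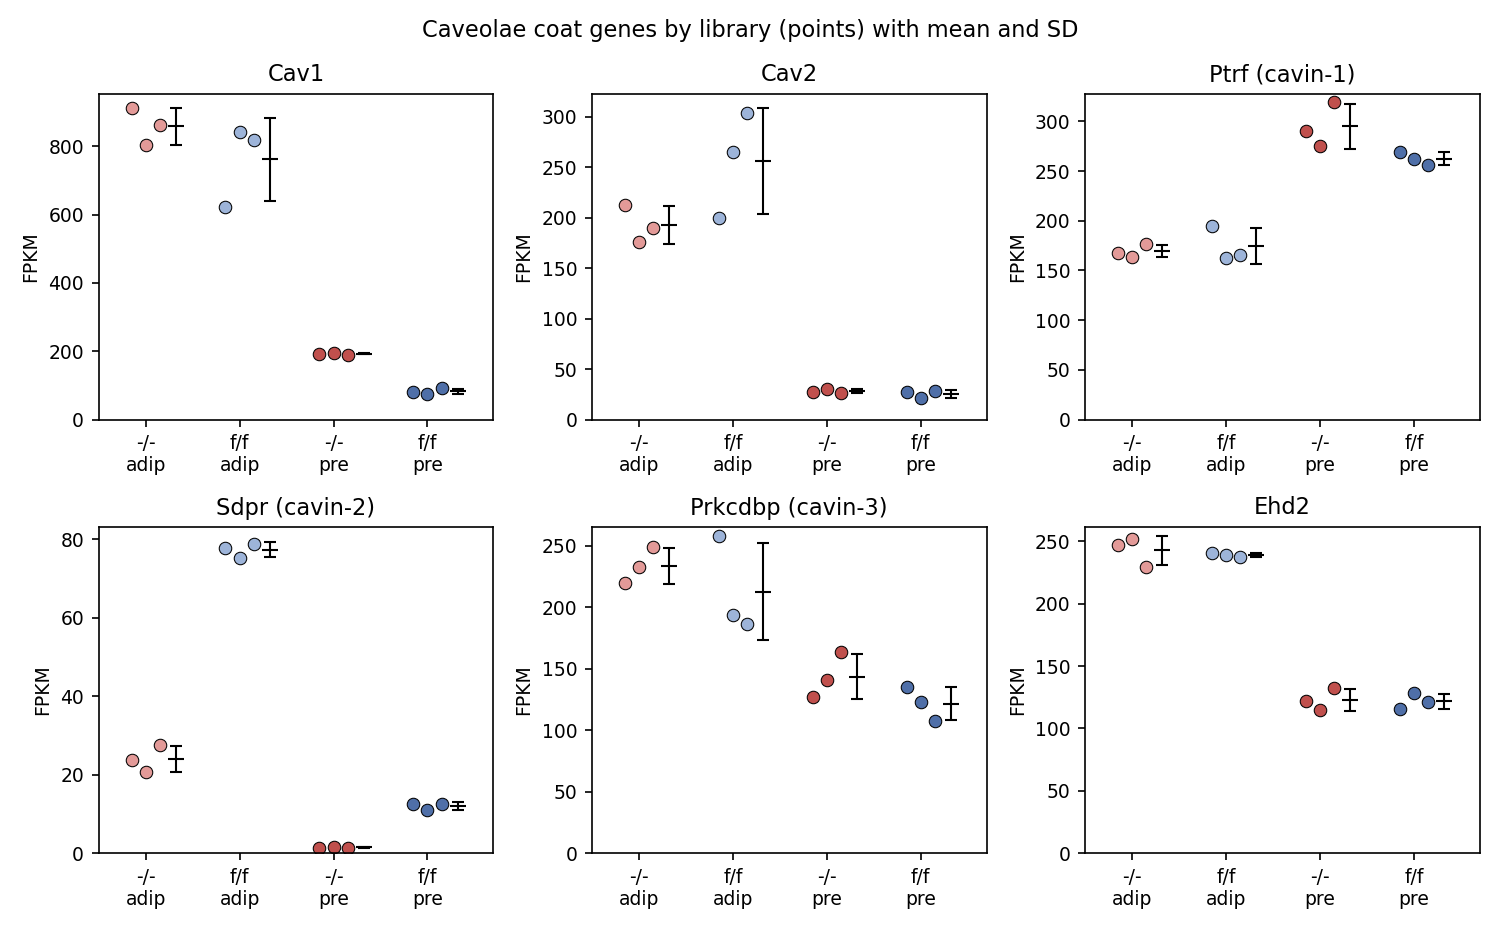
Level (FPKM, linear axis from 0) of each caveolae coat gene in the 12 libraries, with Acly-/- left of Aclyf/f and adipocytes (adip) left of preadipocytes (pre); points are libraries, and the line and bars beside them are mean and SD (n = 3). Sdpr is the member whose 4 groups are all apart, and Ptrf the member that is lower in adipocytes.

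Cav1 (chromosome 6, 17306335 to 17341328, mm10) encodes caveolin-1, the caveolin that adipocytes need to form caveolae, and it was among the most abundant transcripts of the adipocytes. It stood at 911, 803 and 861 FPKM in Acly-/- adipocytes, 622, 843 and 820 FPKM in Aclyf/f adipocytes, 193, 194 and 190.45 FPKM in Acly-/- preadipocytes and 82.3, 75.3 and 91.3 FPKM in Aclyf/f preadipocytes. By group mean it ranked 97 in Acly-/- adipocytes, 88 in Aclyf/f adipocytes, 372 in Acly-/- preadipocytes and 951 in Aclyf/f preadipocytes among the 11777 genes tested. The adipocyte genotypes overlapped, and all other groups were apart.

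Differentiation raised Cav1 in both genotypes, by a smaller ratio without Acly, where it started from a higher preadipocyte level. In Acly-/- cells it averaged 858 ± 54.2 FPKM in adipocytes and 192 ± 1.7 FPKM in preadipocytes, 4.46-fold higher (log2 fold change of FPKM + 1 of 2.15, SE 0.11, limma adjusted p = 1.22e-09). In Aclyf/f cells it averaged 761 ± 122 FPKM in adipocytes and 83.0 ± 8.04 FPKM in preadipocytes, 9.17-fold higher (3.17, SE 0.11, adjusted p = 8.68e-12). These are bulk samples, in which more cells of a type and more RNA per cell cannot be told apart. The difference between both fold changes, Acly-/- minus Aclyf/f, was -1.02 on the log2 scale (SE 0.15, adjusted p = 0.00011). In preadipocytes Cav1 was 2.32-fold higher in Acly-/- than in Aclyf/f cells (log2 fold change 1.21, SE 0.11, adjusted p = 1.37e-06), and it was as high without Acly-/- preadipocyte library 3 (1.21, adjusted p = 1.11e-05). In adipocytes the genotypes did not pass the test (0.18, 95% interval -0.05 to 0.42, adjusted p = 0.168).

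Cav2 (chromosome 6, 17281185 to 17289130) encodes caveolin-2, which assembles with caveolin-1 and depends on it to reach the plasma membrane. Its transcript stood at 213, 176 and 189.8 FPKM in Acly-/- adipocytes, 199, 265 and 304 FPKM in Aclyf/f adipocytes, 27.9, 30.4 and 26.5 FPKM in Acly-/- preadipocytes and 27.6, 21.3 and 28.6 FPKM in Aclyf/f preadipocytes. Both adipocyte groups lay above both preadipocyte groups, and the genotypes overlapped at each stage. On differentiation it rose 6.83-fold in Acly-/- cells (2.73, SE 0.14, adjusted p = 1.74e-09) and 9.92-fold in Aclyf/f cells (3.25, SE 0.14, adjusted p = 1.13e-10). In preadipocytes the genotypes did not pass the test (0.13, 95% interval -0.17 to 0.44, adjusted p = 0.48).

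In adipocytes Cav2 was called lower without Acly, at 193 ± 18.6 FPKM in Acly-/- and 256 ± 52.7 FPKM in Aclyf/f adipocytes, 1.33-fold lower (-0.39, SE 0.14, adjusted p = 0.0324). This call rested on single libraries. It ended without Acly-/- adipocyte library 2 (0.113) or 3 (0.0769), without Aclyf/f adipocyte library 2 (0.0922) or 3 (0.151), after quantile normalization (0.0747), and with no filter on low values (0.137). The same holds for the difference between its differentiation fold changes (-0.52, SE 0.20, adjusted p = 0.0441), which missed the threshold after quantile normalization (0.0838), with every library at the same FPKM sum (0.0875), with no filter (0.166), with no variance trend (0.0522), with the replicate number as a block (0.0595) and without any of 7 libraries: Acly-/- adipocyte 2 (0.1004) or 3 (0.0777), Aclyf/f adipocyte 2 (0.0866) or 3 (0.109), Acly-/- preadipocyte 1 (0.0623) or 2 (0.0926), or Aclyf/f preadipocyte 2 (0.112).

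Ptrf (chromosome 11, 100956736 to 100970617) encodes cavin-1, without which the coat does not assemble, and it was the only member that fell on differentiation. It stood at 168, 164 and 176 FPKM in Acly-/- adipocytes, 195, 163 and 166 FPKM in Aclyf/f adipocytes, 290.06, 275 and 319.8 FPKM in Acly-/- preadipocytes and 269, 262 and 256 FPKM in Aclyf/f preadipocytes. Every adipocyte library lay below every preadipocyte library. The fall was 1.74-fold in Acly-/- cells (-0.79, SE 0.08, adjusted p = 1.55e-06) and 1.5-fold in Aclyf/f cells (-0.59, SE 0.08, adjusted p = 1.72e-05), and the difference between them did not pass the test (-0.20, 95% interval -0.45 to 0.04, adjusted p = 0.155).

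Acly loss was not called for Ptrf at either stage (adipocytes -0.04, 95% interval -0.21 to 0.14, adjusted p = 0.705, and preadipocytes 0.17, 95% interval -0.01 to 0.34, adjusted p = 0.12). In preadipocytes the 3 Acly-/- libraries were nevertheless all above the 3 Aclyf/f libraries, as was so in either direction for 49.9% of all genes tested, and the gene passed the test after quantile normalization (0.18, adjusted p = 0.0382). Ptrf lies 429 kb from Acly on the same chromosome. Of its nearest tested neighbours, Stat3, a transcription factor gene 17.2 kb away, was called lower in Acly-/- preadipocytes, at 33.4 FPKM in Acly-/- against 61.9 FPKM in Aclyf/f preadipocytes (-0.87, adjusted p = 5.76e-07). It was also called lower in Acly-/- adipocytes (-0.25, adjusted p = 0.00865). The other neighbour, Atp6v0a1 at 38.8 kb, was called lower in Acly-/- preadipocytes (-0.33, adjusted p = 0.00883) and higher in Acly-/- adipocytes (0.28, adjusted p = 0.0156).

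Sdpr encodes cavin-2, a cavin that takes part in shaping the pit and is prominent in endothelium and fat, and it had the largest genotype differences of the 6 members. It stood at 23.6, 20.8 and 27.6 FPKM in Acly-/- adipocytes, 77.9, 75.2 and 78.9 FPKM in Aclyf/f adipocytes, 1.33, 1.68 and 1.39 FPKM in Acly-/- preadipocytes and 12.6, 10.96 and 12.6 FPKM in Aclyf/f preadipocytes. No groups overlapped, so that the order of levels was Aclyf/f adipocytes, Acly-/- adipocytes, Aclyf/f preadipocytes and Acly-/- preadipocytes. Sdpr ranked 3621 in Acly-/- adipocytes, 1144 in Aclyf/f adipocytes, 10640 in Acly-/- preadipocytes and 6020 in Aclyf/f preadipocytes among 11777 genes.

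Sdpr was lower with Acly loss at both stages. In adipocytes it averaged 24.0 ± 3.42 FPKM in Acly-/- and 77.3 ± 1.89 FPKM in Aclyf/f libraries, 3.22-fold lower (-1.66, SE 0.10, adjusted p = 1.93e-08). In preadipocytes it averaged 1.47 ± 0.185 FPKM in Acly-/- and 12.1 ± 0.97 FPKM in Aclyf/f libraries, 8.24-fold lower (-2.41, SE 0.10, adjusted p = 2.5e-09). The log2 value in preadipocytes depends on the pseudocount, with -2.96 at a pseudocount of 0.1 and -1.40 at a pseudocount of 5, and the gene was called at both. At the estimated depths its lowest library still held about 38 fragments of the 3055-base transcript.

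Sdpr rose on differentiation in both genotypes, 16.4-fold in Acly-/- cells (3.34, SE 0.10, adjusted p = 6.67e-12) and 6.4-fold in Aclyf/f cells (2.58, SE 0.10, adjusted p = 3.16e-11), yet Acly-/- adipocytes remained below Aclyf/f adipocytes. In Acly-/- cells the log2 value was 3.94 at a pseudocount of 0.1 and 2.16 at a pseudocount of 5. The difference between both fold changes was 0.75 (SE 0.14, adjusted p = 0.0007), but its size and sign hang on the pseudocount, with 1.27 at a pseudocount of 0.1 and -0.11 (adjusted p = 0.426) at a pseudocount of 5. In FPKM the rise was thus larger as a ratio in Acly-/- cells and larger as an amount in Aclyf/f cells. The table gives Sdpr a locus of chromosome 1, 51218386 to 51333779, which it shares with the antisense gene 9330175M20Rik, while RefSeq places the gene itself at 51289126 to 51302960. The antisense gene was at the floor of 0.01 FPKM in 10 libraries and at 0.0503 and 0.0357 FPKM in the other libraries, and strand handling is not stated.

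Prkcdbp (chromosome 7, 105480616 to 105482197) encodes cavin-3, which binds protein kinase C delta. It stood at 219.6, 233 and 248.7 FPKM in Acly-/- adipocytes, 258, 194 and 186 FPKM in Aclyf/f adipocytes, 127, 141 and 163 FPKM in Acly-/- preadipocytes and 135, 123 and 108 FPKM in Aclyf/f preadipocytes. The stages were apart and the genotypes overlapped within each. It rose 1.63-fold in Acly-/- cells (0.70, SE 0.13, adjusted p = 0.000291) and 1.75-fold in Aclyf/f cells (0.79, SE 0.13, adjusted p = 7.37e-05). Acly loss was not called in adipocytes (0.15, 95% interval -0.13 to 0.42, adjusted p = 0.342) or preadipocytes (0.24, 95% interval -0.04 to 0.51, adjusted p = 0.155), and the difference between the fold changes was -0.09 (95% interval -0.48 to 0.30, adjusted p = 0.709).

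Ehd2 (chromosome 7, 15948987 to 15967535), the ATPase gene of the caveolar neck, rose on differentiation and was not called with Acly loss. It stood at 247, 252 and 229.8 FPKM in Acly-/- adipocytes, 241, 239 and 238 FPKM in Aclyf/f adipocytes, 122, 115 and 132 FPKM in Acly-/- preadipocytes and 116, 128 and 121 FPKM in Aclyf/f preadipocytes. Genotypes overlapped at both stages. Differentiation raised it 1.97-fold in Acly-/- cells (0.98, SE 0.07, adjusted p = 4.55e-08) and 1.97-fold in Aclyf/f cells (0.97, SE 0.07, adjusted p = 2.22e-08). For Acly loss the 95% interval of the log2 fold change was -0.13 to 0.17 in adipocytes and -0.14 to 0.17 in preadipocytes, and for the difference between the fold changes it was -0.21 to 0.22 (adjusted p = 0.959).

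**Figure D2:**
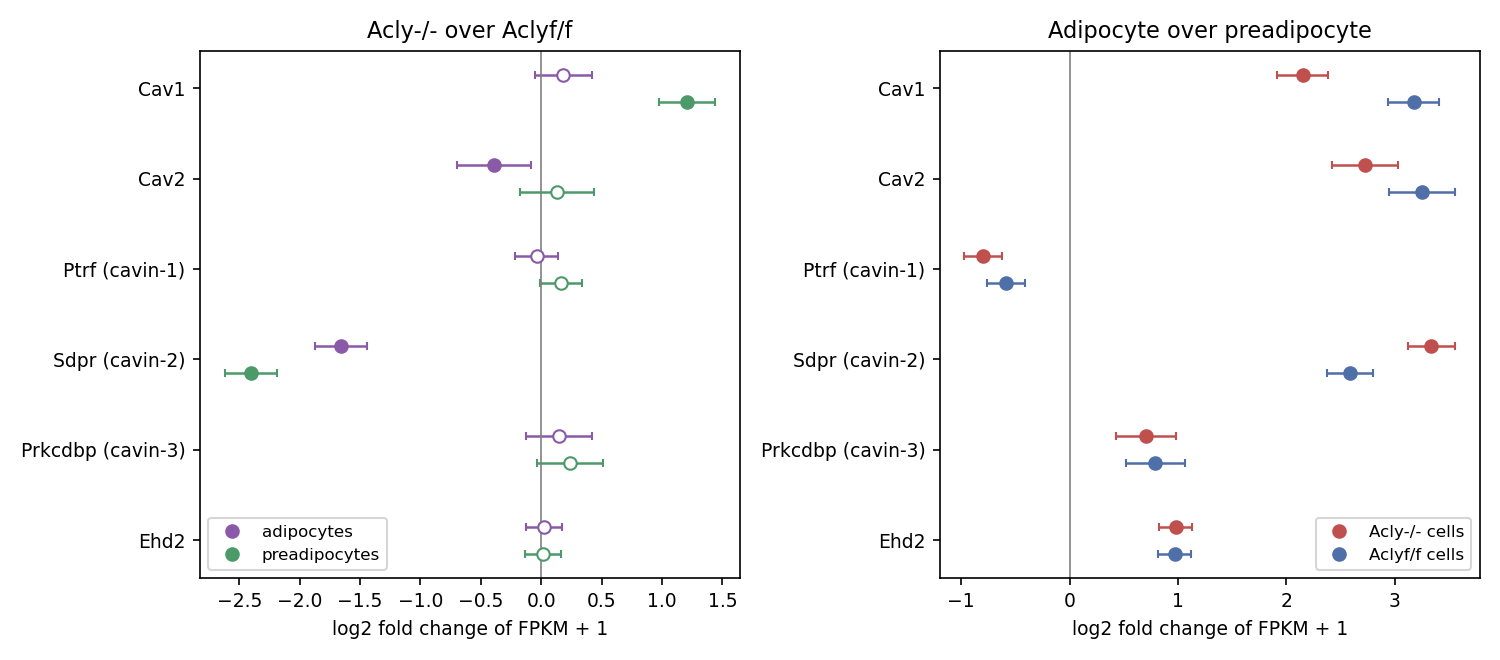
Log2 fold change of FPKM + 1 (x axis) for each member with its 95% interval from limma: on the left Acly-/- over Aclyf/f in adipocytes and in preadipocytes, on the right adipocyte over preadipocyte in Acly-/- and in Aclyf/f cells. Filled points have an adjusted p under 0.05; on the left these are Sdpr at both stages, Cav1 in preadipocytes and Cav2 in adipocytes, on the right all 6 members.

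With Acly loss 2 of the 6 members were called in adipocytes, Cav2 and Sdpr, both lower, where 54.8% of all genes tested were called, 25.6% higher and 29.2% lower. In preadipocytes 2 of 6 were called, Cav1 higher and Sdpr lower, where 42.2% of all genes were called, 19.7% higher and 22.4% lower. The genotypes did not overlap for 1 of 6 members in adipocytes, against 63.2% of all genes, and for 3 of 6 in preadipocytes, against 49.9%. Differentiation was called for all 6 members in each genotype, 5 higher and 1 lower. Of all genes 61.4% were called in Acly-/- cells (30.4% higher, 31% lower) and 72.5% in Aclyf/f cells (36.5% higher, 36% lower). The stages did not overlap for any of the 6 members in either genotype, against 64.6% of all genes in Acly-/- cells and 75.7% in Aclyf/f cells. The median log2 fold change of the 6 on differentiation was 1.56 in Acly-/- and 1.78 in Aclyf/f cells, and over all genes it was 0 at 2 decimals in both. The difference between the differentiation fold changes was called for 3 of 6 members (1 higher, 2 lower), against 50.2% of all genes (23.7% higher, 26.4% lower). The members' shares of calls for Acly loss and for the difference lay at or under those of all genes and are no result about the members.

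Since FPKM is per length, the members can be set beside each other. Cav2 amounted to 0.224 ± 0.00795 of Cav1 in Acly-/- adipocytes and 0.335 ± 0.0308 in Aclyf/f adipocytes. Before differentiation the ratio was 0.147 ± 0.00908 in Acly-/- preadipocytes and 0.31 ± 0.0261 in Aclyf/f preadipocytes. The Acly-/- ratio lay below the Aclyf/f ratio in all 3 libraries at each stage, without overlap. Ptrf amounted to 0.198 ± 0.0117 of Cav1 in Acly-/- adipocytes and 0.236 ± 0.0673 in Aclyf/f adipocytes, against 1.53 ± 0.132 in Acly-/- preadipocytes and 3.18 ± 0.347 in Aclyf/f preadipocytes. Cavin-1 transcript thus outnumbered caveolin-1 transcript before differentiation in all 6 libraries and was under it afterwards in all 6.

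Among the cavins, Prkcdbp amounted to 1.38 ± 0.0614 of Ptrf in Acly-/- adipocytes and 1.21 ± 0.0999 in Aclyf/f adipocytes, against 0.487 ± 0.0433 in Acly-/- preadipocytes and 0.463 ± 0.0405 in Aclyf/f preadipocytes. Sdpr amounted to 0.141 ± 0.0149 of Ptrf in Acly-/- adipocytes and 0.446 ± 0.0412 in Aclyf/f adipocytes, against 0.00501 ± 0.000949 in Acly-/- preadipocytes and 0.0461 ± 0.00388 in Aclyf/f preadipocytes. Summed caveolin level was 2.47 ± 0.232 of summed cavin level in Acly-/- adipocytes and 2.24 ± 0.6 in Aclyf/f adipocytes, against 0.504 ± 0.0489 in Acly-/- preadipocytes and 0.276 ± 0.0388 in Aclyf/f preadipocytes. The cavin sum itself stayed within 396 and 465 FPKM across the 4 group means, with the fall of Ptrf beside the rises of Prkcdbp and Sdpr. These ratios were not tested.

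**Figure D3:**
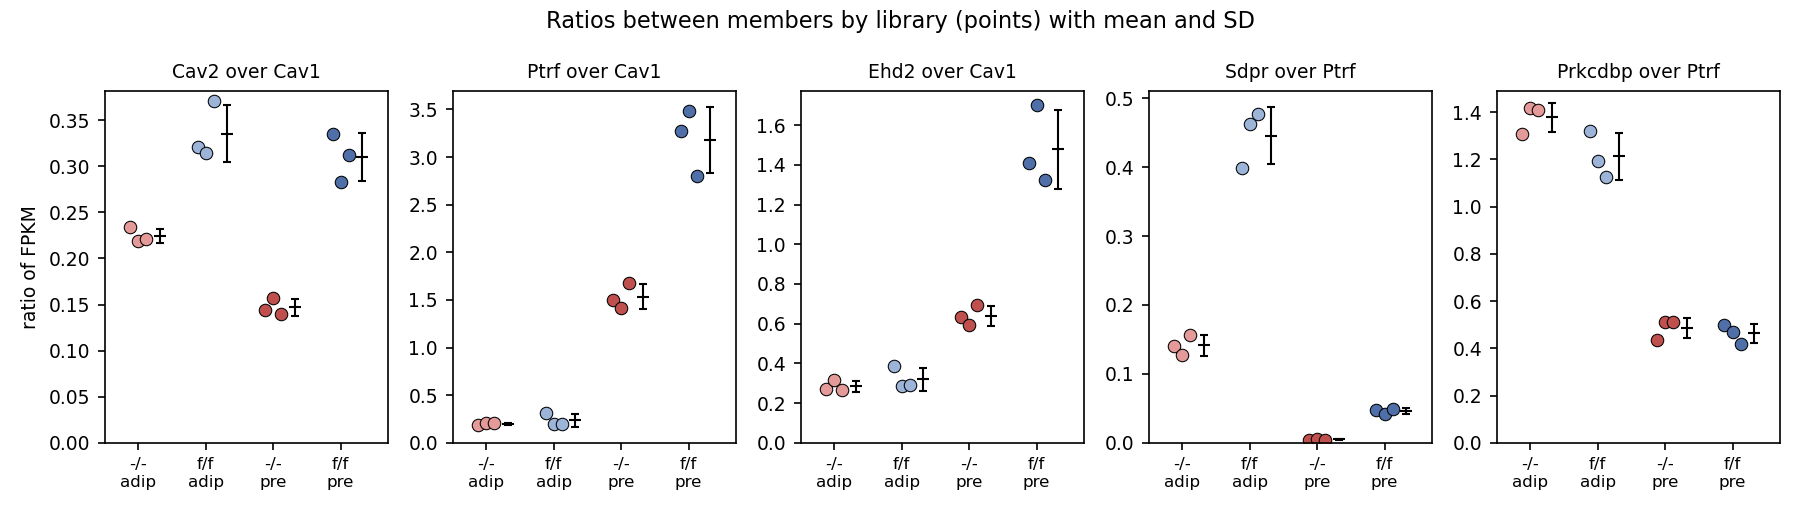
Ratio of FPKM between members (linear axes from 0) in the 12 libraries, with Acly-/- left of Aclyf/f and adipocytes (adip) left of preadipocytes (pre); points are libraries, and the line and bars are mean and SD (n = 3). Cav2 over Cav1 is lower without Acly at both stages, and Ptrf over Cav1 drops below 1 in adipocytes.

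Library 1 of the Aclyf/f adipocytes stood apart from libraries 2 and 3 for several members, being lowest in Cav1 and Cav2 and highest in Ptrf and Prkcdbp. Without it, Prkcdbp passed the test as higher in Acly-/- adipocytes (0.29, adjusted p = 0.0446). That library also had the lowest estimated depth of its group, 1.07e+07 against 1.37e+07 and 1.13e+07 fragments. Whether depth has a part in these values was not tested.

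Cav2 and Cav1 lie 17.2 kb apart, with Tes on the outer side of Cav2 at 175 kb and Met on the outer side of Cav1 at 123 kb. Tes, a focal adhesion gene, went against the caveolins: it averaged 7.0 FPKM in Acly-/- adipocytes and 2.58 FPKM in Aclyf/f adipocytes, against 29.95 FPKM in Acly-/- preadipocytes and 28.6 FPKM in Aclyf/f preadipocytes, and fell on differentiation in Acly-/- (-1.95, adjusted p = 8.67e-09) and in Aclyf/f cells (-3.03, adjusted p = 3.46e-11). Met, the receptor gene for hepatocyte growth factor, rose in Acly-/- (1.09, adjusted p = 5.94e-07) and in Aclyf/f cells (1.97, adjusted p = 5.74e-10) at low levels of at most 9.98 FPKM. With Acly loss in preadipocytes, where Cav1 was called higher, neither Met (-0.19, adjusted p = 0.154) nor Tes (0.09, adjusted p = 0.592) passed the test. Beside Sdpr, Tmeff2 at 31.1 kb was called higher without Acly in adipocytes (0.78, adjusted p = 1.44e-05) and in preadipocytes (0.86, adjusted p = 1.04e-05), the opposite of Sdpr, and Nabp1 at 136 kb was not called at either stage (-0.04, adjusted p = 0.765, and 0.16, adjusted p = 0.183).

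Genes whose log2 level ran most like each member over the 12 libraries were picked by Pearson's r among 8899 genes with a mean of at least 5 FPKM, as a description over libraries that form 4 groups. For Cav1 they were Cdsn (r = 0.995), Tob1 (0.993) and Smug1 (0.992). Cdsn, the corneodesmosin gene, averaged 26.7 FPKM in Acly-/- adipocytes and 22.3 FPKM in Aclyf/f adipocytes, against 3.74 FPKM in Acly-/- preadipocytes and 0.433 FPKM in Aclyf/f preadipocytes. For Cav2 they were Pank3 (0.998), a pantothenate kinase gene of coenzyme A synthesis, Chpt1 (0.997), a choline phosphotransferase gene, and Tusc5 (0.995), which encodes an adipocyte protein that affects GLUT4 traffic. Sdpr ran most like Peli2 (0.99), Dapk1 (0.99) and Hsd17b4 (0.989), of which Dapk1, a death-associated kinase gene, averaged 14.1 FPKM in Acly-/- and 31.4 FPKM in Aclyf/f adipocytes and 0.712 FPKM in Acly-/- and 5.91 FPKM in Aclyf/f preadipocytes. Ptrf ran most like the tubulin gene Tubb4b (0.989), S100a16 (0.987) and Tmem86a (0.986). Prkcdbp ran most like Alkbh3 (0.974), Gart (0.972) and Irf2bp2 (0.969), and Ehd2 most like the clock repressor gene Nr1d1 (0.996), the basement membrane collagen gene Col4a2 (0.995) and gelsolin, Gsn (0.994).

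Of 9 further caveolar genes, 4 were tested. The muscle caveolin Cav3 was at the floor in all 12 libraries, and Murc, the muscle cavin, averaged 0.288 FPKM in Acly-/- and 0.383 FPKM in Aclyf/f adipocytes and 0.248 FPKM in Acly-/- and 0.38 FPKM in Aclyf/f preadipocytes. Pacsin3, a membrane-bending F-BAR gene, was lower without Acly in adipocytes, at 11.8 ± 0.546 FPKM in Acly-/- against 22.3 ± 1.96 FPKM in Aclyf/f cells (-0.85, adjusted p = 3.87e-06), and in preadipocytes, at 7.42 ± 0.768 FPKM in Acly-/- against 11.99 ± 0.831 FPKM in Aclyf/f cells (-0.63, adjusted p = 0.000104). It rose on differentiation in Acly-/- (0.61, adjusted p = 5.34e-05) and in Aclyf/f cells (0.84, adjusted p = 1.62e-06). Its widely expressed relative Pacsin2 averaged 36.2 to 37.4 FPKM in all 4 groups and was not called in any contrast. Of the relatives of Ehd2, Ehd4 fell on differentiation in Acly-/- (-1.03, adjusted p = 7.83e-08) and in Aclyf/f cells (-0.52, adjusted p = 4e-05), opposite to Ehd2, and Ehd1 was lower without Acly in adipocytes, at 55.7 ± 1.8 FPKM in Acly-/- against 76.7 ± 1.46 FPKM in Aclyf/f cells (-0.46, adjusted p = 0.000703).

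The flotillins, which form caveolin-independent microdomains, were lower without Acly at both stages. Flot1 stood at 34.4 ± 1.99 FPKM in Acly-/- and 52.1 ± 3.91 FPKM in Aclyf/f adipocytes (-0.58, adjusted p = 0.00012), and at 19.3 ± 2.28 FPKM in Acly-/- and 39.2 ± 2.8 FPKM in Aclyf/f preadipocytes (-0.99, adjusted p = 1.92e-06). Flot2 followed with -0.55 (adjusted p = 2.51e-05) in adipocytes and -0.61 (adjusted p = 1.65e-05) in preadipocytes. Stom, the stomatin gene, rose with both flotillins on differentiation, 2-fold in Acly-/- and 2.37-fold in Aclyf/f cells, so that 3 of 3 were called higher in either genotype. Of all genes tested 30.4% were called higher in Acly-/- cells and 36.5% in Aclyf/f cells. Clathrin coat and adaptor genes had 2 rises and 3 falls among 16 tested on differentiation in Acly-/- cells and 3 rises and 5 falls in Aclyf/f cells, with medians of 0.07 and -0.09. Of all genes tested 61.4% were called on differentiation in Acly-/- cells and 72.5% in Aclyf/f cells. Their most changed member was Dab2, an adaptor gene, which fell in Acly-/- (-1.21, adjusted p = 2.98e-07) and in Aclyf/f cells (-2.98, adjusted p = 1.22e-11). Dnm2, the widely expressed dynamin gene, rose in Acly-/- (0.61, adjusted p = 7.43e-06) and in Aclyf/f cells (0.89, adjusted p = 9.48e-08).

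**Figure D4:**
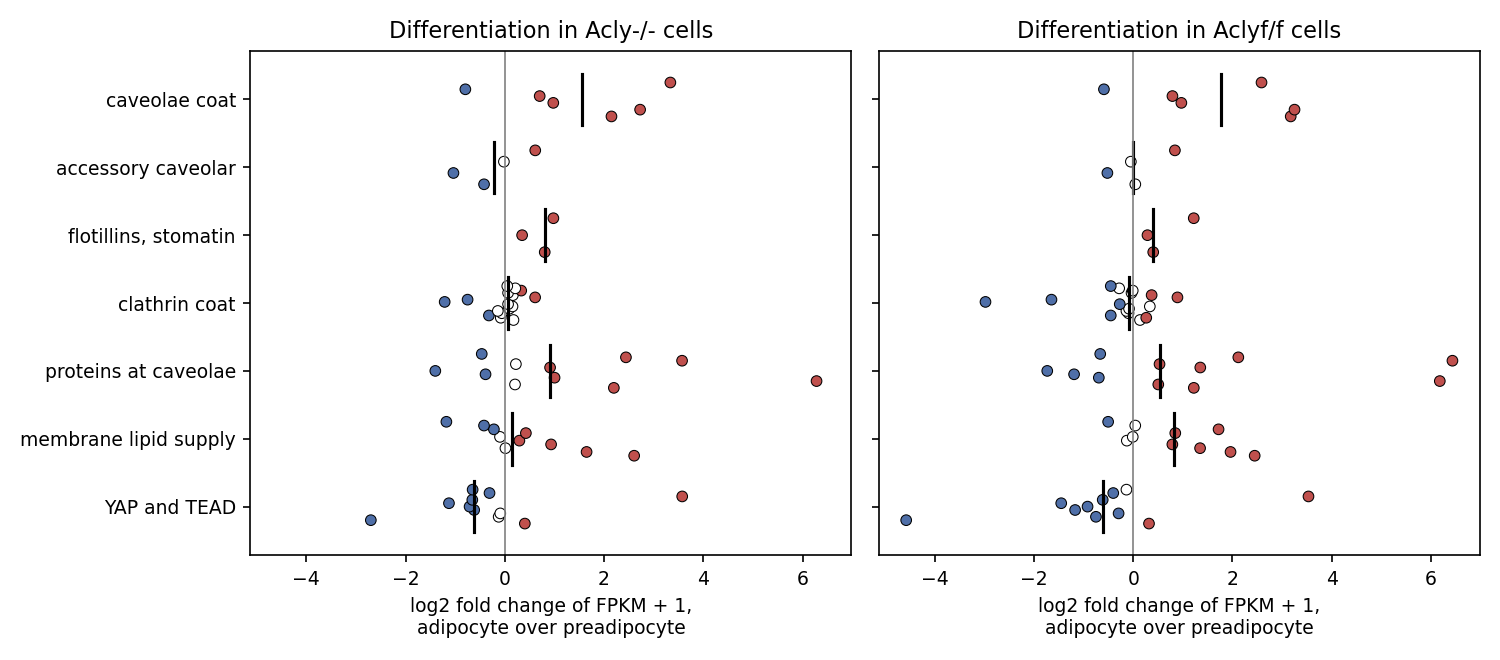
Log2 fold change of FPKM + 1 on differentiation (adipocyte over preadipocyte, x axis) for the tested genes of 7 lists, in Acly-/- cells on the left and Aclyf/f cells on the right; red points were called higher, blue points lower and open points not called, and the black line is the list's median. Caveolae coat genes have medians of 1.56 and 1.78, and clathrin coat genes 0.07 and -0.09.

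Among 11 tested genes for signalling and transport proteins described at caveolae, 6 rose and 3 fell on differentiation in Acly-/- cells, and 7 rose and 4 fell in Aclyf/f cells. Of all genes 61.4% were called in Acly-/- cells and 72.5% in Aclyf/f cells. Cd36, a fatty acid transporter, stood at 98.9 ± 8.97 FPKM in Acly-/- and 136 ± 21.3 FPKM in Aclyf/f adipocytes, and under 1 FPKM on average in both preadipocyte groups. Insr, the insulin receptor, stood at 10.98 ± 0.451 FPKM in Acly-/- and 20.3 ± 0.94 FPKM in Aclyf/f adipocytes, 1.85-fold lower (adjusted p = 6.85e-07), and at 5.37 ± 0.172 FPKM in Acly-/- and 7.37 ± 0.429 FPKM in Aclyf/f preadipocytes (adjusted p = 0.000792). Slc2a4, the insulin-regulated glucose transporter GLUT4, was 8.04-fold lower in Acly-/- adipocytes. Acly loss was called for 8 of the 11 in adipocytes (2 higher, 6 lower) and for 8 in preadipocytes (1 higher, 7 lower), with medians of -0.44 and -0.39 against -0.02 and -0.01 over all genes. The share of all genes called was 54.8% in adipocytes and 42.2% in preadipocytes.

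Genes that supply sterol, sphingomyelin and phosphatidylserine, lipids found in caveolae, had 1 rise and 5 falls among 10 with Acly loss in adipocytes and 4 rises and 1 fall in preadipocytes. Of all genes 54.8% were called in adipocytes and 42.2% in preadipocytes, so these counts are no result about the list. Scarb1, the HDL receptor, stood at 26.6 ± 2.02 FPKM in Acly-/- and 74.9 ± 1.66 FPKM in Aclyf/f adipocytes (-1.46, adjusted p = 1.25e-08), and at 31.2 ± 3.63 FPKM in Acly-/- and 22.1 ± 0.713 FPKM in Aclyf/f preadipocytes (0.48, adjusted p = 0.000546).

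YAP, a coactivator, and its partners, the TEAD transcription factors, are known to act on genes for caveolins and cavins. Of 11 tested genes of that list, 4 were higher and 5 lower without Acly in adipocytes, and 2 were higher and 5 lower in preadipocytes. The share of all genes called was 54.8% in adipocytes and 42.2% in preadipocytes. On differentiation 2 rose and 7 fell in Acly-/- cells, and 2 rose and 8 fell in Aclyf/f cells, with medians of -0.62 and -0.61. Of all genes 61.4% were called in Acly-/- cells and 72.5% in Aclyf/f cells. Ctgf, a common YAP target, stood at 30.6 ± 7.16 FPKM in Acly-/- and 6.27 ± 0.496 FPKM in Aclyf/f adipocytes, 4.88-fold higher (adjusted p = 5.7e-08), and at 201 ± 21.1 FPKM in Acly-/- and 173 ± 25.8 FPKM in Aclyf/f preadipocytes (adjusted p = 0.227). On differentiation Ctgf fell 6.59-fold in Acly-/- and 27.6-fold in Aclyf/f cells. Tead4 rose to 17.8 ± 1.24 FPKM in Acly-/- and 13.4 ± 1.44 FPKM in Aclyf/f adipocytes, against 0.577 ± 0.0751 FPKM in Acly-/- and 0.245 ± 0.167 FPKM in Aclyf/f preadipocytes. Tead2 and Tead3 instead fell on differentiation in both genotypes. Without Acly both were lower in adipocytes (-0.53, adjusted p = 0.000426, and -0.83, adjusted p = 3.51e-06). The same held in preadipocytes (-0.85, adjusted p = 1.13e-05, and -0.79, adjusted p = 9.53e-06).

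The summed level of 7 smooth muscle and pericyte markers, mostly Acta2, was 51.9 to 61.0 FPKM in Acly-/- adipocytes, 28.0 to 40.3 FPKM in Aclyf/f adipocytes, 135 to 149 FPKM in Acly-/- preadipocytes and 414 to 427 FPKM in Aclyf/f preadipocytes, and Cspg4 was under 0.05 FPKM on average in each group. Myh11 and Des were instead higher in adipocytes. Myh11 averaged 3.14 FPKM in Acly-/- and 6.96 FPKM in Aclyf/f adipocytes, and 0.134 FPKM in Acly-/- and 0.116 FPKM in Aclyf/f preadipocytes. With Acly loss in adipocytes Acta2 was called higher (1.36, adjusted p = 9.53e-06) and Myh11 lower (-0.94, adjusted p = 4.79e-06). The other 3 tested were not called there. The sum of 6 macrophage and leukocyte markers was 30.5 to 36.3 FPKM in Acly-/- adipocytes and at most 7.3 FPKM elsewhere, carried by Cd68, while Ptprc and Itgam were at the floor in all 12 libraries. The sum of 8 endothelial markers was 5.41 to 7.92 FPKM in Acly-/- adipocytes, 7.09 to 10.9 FPKM in Aclyf/f adipocytes, 5.18 to 8.01 FPKM in Acly-/- preadipocytes and 6.85 to 7.12 FPKM in Aclyf/f preadipocytes. Egfl7 and Plvap made up most of it. Plvap averaged 1.03 FPKM in Acly-/- adipocytes, 3.35 FPKM in Aclyf/f adipocytes, 0.898 FPKM in Acly-/- preadipocytes and 1.7 FPKM in Aclyf/f preadipocytes, and was called lower with Acly loss in adipocytes (-1.09, adjusted p = 5.85e-06) and in preadipocytes (-0.51, adjusted p = 0.00434). Egfl7 was not called with Acly loss in adipocytes (-0.19, adjusted p = 0.486) or in preadipocytes (0.34, adjusted p = 0.231). Kdr was not called in adipocytes (0.20, adjusted p = 0.111) and was called lower in preadipocytes (-0.46, adjusted p = 0.00247). The sum of 6 skeletal muscle markers was 2.92 to 4.41 FPKM in Acly-/- adipocytes, 2.36 to 2.61 FPKM in Aclyf/f adipocytes, 0.673 to 1.21 FPKM in Acly-/- preadipocytes and 2.06 to 2.37 FPKM in Aclyf/f preadipocytes. Actn3, the 1 member of that list that was tested, was called higher with Acly loss in adipocytes (0.33, adjusted p = 0.0301) and lower in preadipocytes (-0.67, adjusted p = 0.000525). Whether the cells that these markers stand for have a part in the members' values was not tested.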

How the data were processed

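Gene expression was deposited by the authors as FPKM, 1 column per library, per the file headers. Cufflinks 2.2.1, Bowtie2 2.2.6, bcl2fastq and the mm10 build stand in the submitters' processing notes, with no role or order. The annotation, the table's filter and strand handling are not stated there. Table starts were raised by 1, so coordinates count from 1. Of 24341 genes, the 11777 that reached 1 FPKM in 3 or more of the 12 libraries were tested. Log2(FPKM + 1) was fitted with limma 3.58.1 (R 4.3.3) as 4 group means with a variance trend, and p-values were Benjamini-Hochberg adjusted across every tested gene of a contrast, with calls under 0.05. The scale understates folds of low genes. Folds are ratios of mean FPKM. The code was tested on simulated data.

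Depth was estimated from values under 0.3 FPKM and GENCODE transcripts of at least 3000 bases, to about 7.12e+06 to 1.37e+07 fragments. Replicates correlated at 0.986 to 0.993 (12 pairs). Promoters are RefSeq's; 5 of 6 members matched by symbol or synonym. Named are all members, up to 2 called genes per list, contrast and direction with the largest change, selected from those for the text (some are not reported here), the 3 genes most like each member and nearest tested neighbours; Pacsin2, Cav3, Murc and the second direction of a named gene were added after their values were seen. The members and lists were chosen with earlier results of these data known. Alternatives were 2 other pseudocounts, no filter, 3 other scalings, no variance trend, contrast groups only, a replicate block and leaving out each library. Python 3.11.15, numpy 2.4.6, pandas 2.3.3 and matplotlib 3.10.9 made summaries and figures.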

Additional observations from a re-analysis of the deposited data

Results flagged for a closer look

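Differentiation changed 3 members by a different log2 fold change in Acly-/- and Aclyf/f cells by the test of that difference (Acly-/- minus Aclyf/f, log2 scale). It was -1.02 for Cav1 (adjusted p = 0.00011), -0.52 for Cav2 (adjusted p = 0.0441) and 0.75 for Sdpr (adjusted p = 0.0007). For Cav1 the range over 20 alternatives was -1.19 to -0.94, with adjusted p from 5.63e-06 to 0.00219. Its level rose from 192 to 858 FPKM in Acly-/- cells and from 83.0 to 761 FPKM in Aclyf/f cells, so the smaller ratio had a higher start. For Cav2 it was -0.69 to -0.39, with adjusted p from 0.00436 to 0.166, and the call held under 8 of the 20. For Sdpr it was -0.11 to 1.27, with adjusted p from 3.18e-05 to 0.426, and the call held under 19 of the 20, the sign turning at a pseudocount of 5.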

How the results depend on the processing

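Of 624 recomputed member comparisons 588 kept their direction and side of the threshold, and all 104 counts of called genes stayed within 1.5 times. The 80 recomputed ratios are no test, since they could not have moved by 1 SD. A common scaling cancels in a ratio, and leaving out 1 of 3 libraries moves a mean by less than 1 SD. Called for Sdpr and Cav1 with Acly loss in preadipocytes, for Sdpr in adipocytes, and for all 6 members on differentiation in each genotype, the call held under every alternative run, while the Sdpr log2 value moved with the pseudocount (-2.96 to -1.40 for Acly loss in preadipocytes, 2.16 to 3.94 for differentiation in Acly-/- cells). Cav2 in adipocytes was no longer called with no filter (-0.39, adjusted p = 0.137) or quantile normalization (-0.35, 0.0747), and ranged from -0.56 to -0.26 when a library was left out (adjusted p 0.00223 to 0.151). The Cav2 difference between differentiation contrasts was not called with no filter (-0.52, 0.166), quantile normalization (-0.49, 0.0838), the same FPKM sum (-0.52, 0.0875), no variance trend (-0.52, 0.0522) or the replicate block (-0.52, 0.0595), and ranged from -0.69 to -0.39 when a library was left out. Quantile normalization brought Ptrf in preadipocytes to a call (0.18, 0.0382) and turned uncalled signs for Cav1 in adipocytes (-0.0269), the Prkcdbp difference (0.0156) and Ehd2 in preadipocytes (-0.0041). The same FPKM sum turned Ehd2 in preadipocytes (-0.0771) and adipocytes (-0.0605), and a pseudocount of 5 the Sdpr difference (-0.11). When a library was left out, uncalled values crossed 0: Ptrf in adipocytes ranged from -0.0865 to 0.0435, the Prkcdbp difference ranged from -0.175 to 0.0585, Ehd2 in preadipocytes ranged from -0.0378 to 0.063, Ehd2 in adipocytes ranged from -0.00479 to 0.0611, the Ehd2 difference ranged from -0.0413 to 0.0595, while Prkcdbp in adipocytes ranged from 0.0609 to 0.294 and was called at its highest. The causes were not tested.

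Rescaling to the same FPKM sum left 1621 genes higher and 3055 lower in Acly-/- preadipocytes, against 2325 and 2641, and 2212 higher and 3861 lower in Acly-/- adipocytes, against 3013 and 3439. Same-numbered libraries of different groups deviated with r of -0.414 to 0.147 over 18 pairs, 4 of them over 0.1. Libraries with other numbers reached further, with r of -0.168 to 0.416 over 36 pairs, 10 of them over 0.1. The numbers were therefore not taken as pairs, and whether libraries share a batch across groups was not tested. With the replicate block 6125 genes were called for Acly loss in adipocytes and 4573 in preadipocytes.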
